A study of Drosophila melanogaster with 7 samples.

Results

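H3K4me3 peaks that also carry H3K27me3 were examined in chromatin from Drosophila wing imaginal discs, the larval epithelia that give rise to the adult wing. They were chosen from the peak lists of the 2 marks: an H3K4me3 peak belonged to the set when at least 1 bp of it lay under an H3K27me3 peak, which held for 469 of the 5868 H3K4me3 peaks (7.99%, 95% exact interval 7.31 to 8.72). The discs were taken at the third larval instar from animals raised on standard medium, and each of 6 targets (H3K4me3, H3K27me3, H3K36me3, ASH2, and RNA polymerase II phosphorylated at serine 5 or serine 2, here Ser5P and Ser2P) was immunoprecipitated and sequenced once (ChIP-seq). The sources used here give no strain or genotype and name no treatment for any of the 6 libraries, and a library of input DNA was not analysed here. The lists give positions only (build dm3), so the height of a peak and the depth of its library are unknown. A list describes the whole disc, so both marks on the same nucleosomes and each mark in different cells cannot be told apart. Because the positions of both marks chose the peaks, these positions are given as a description.

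H3K4me3 is laid down at active promoters by COMPASS-type complexes, of which the trithorax group protein ASH2 is a subunit. H3K27me3 is written by the Polycomb complex PRC2, spreads over long domains, and keeps developmental regulators such as homeotic genes silent. H3K36me3 is deposited along gene bodies behind elongating polymerase, and is known to inhibit PRC2 on the same histone tail. Ser5P marks polymerase near the promoter and Ser2P marks elongating polymerase. Promoters with both methyl marks are called bivalent in mammalian embryonic stem cells. The ASH2 library is named after its label, although the catalogue number listed for its antibody belongs to a reagent against the HA tag, and the labels describe no HA-tagged animals.

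The overlaps were of unlike kinds. H3K27me3 covered at least 50% of 221 peaks (47.1%, 95% exact interval 42.5 to 51.8) and less of the other 248. With H3K27me3 peaks no more than 5000 bp apart taken as 1 domain, 334 of the 469 lay in a domain of at least 5 kb and 135 in a shorter one. With peaks covered over at least 50% called well covered and the rest partly covered, these splits gave 199 well-covered peaks in long domains, 22 well-covered peaks in short domains, 135 partly covered peaks in long domains and 113 partly covered peaks in short domains. Coverage piled up at the top: 136 peaks were covered over at least 90% of their length, 110 of them wholly, whereas 13 were covered by 70 to 80% and 16 by 80 to 90%. Each of the 5 classes below 50% held 41 to 57 peaks. Near the split, 24 peaks were covered by 45 to 50% and 17 by 50 to 55%.

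These groups sat in different places, which the splits set in part, since coverage, domain length and distance from an edge all derive from the same H3K27me3 peaks. The well-covered peaks in long domains lay deep inside: their midpoints were a median of 15294 bp from the nearer domain edge (interquartile range 4939 to 31938), and 181 of 199 were wholly within the domain, whose median length was 62606 bp. The partly covered peaks in long domains lay at a median of 606.5 bp from the edge (117 to 4430), and 69 of 135 crossed it. The partly covered peaks in short domains met domains with a median length of only 323 bp. There 69 of 113 peaks spanned the whole domain, and 68 had their midpoint outside it. The median stretch under H3K27me3 was 526 bp in the well-covered peaks of long domains, 248 bp in the partly covered peaks of long domains and 197 bp in those of short domains.

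H3K4me3 peak width differed along with coverage. The median was 622 bp (interquartile range 376.5 to 958.5) for well-covered peaks in long domains and 626.5 bp for those in short domains. Partly covered peaks had a median of 955 bp in long domains (753.5 to 1249) and in short domains (805 to 1227), against 844 bp (628.5 to 1070) for the 5399 H3K4me3 peaks without H3K27me3. Coverage is a share of the peak's own width, so a narrow peak reaches 50% more easily, and these widths are a description. Of the 469 peaks, 18 were under 100 bp wide, and all 18 were well covered and in long domains.

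The targets that did not enter the choice of peaks were compared next. H3K36me3 differed most between the groups. It was present at 17 of 199 well-covered peaks in long domains (8.54%, 95% exact interval 5.06 to 13.3) and at 10 of 22 in short domains (45.5%, 24.4 to 67.8). Among partly covered peaks it was present at 75 of 135 in long domains (55.6%, 46.8 to 64.1) and at 67 of 113 in short ones (59.3%, 49.6 to 68.4). The 5399 peaks without H3K27me3 had it at 46.7% (45.3 to 48), and all 5868 H3K4me3 peaks at 45.8%. With 1 library per target no test over samples exists. The intervals cover the counting of peaks only, and neighbouring peaks are not independent.

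**Figure D1:**
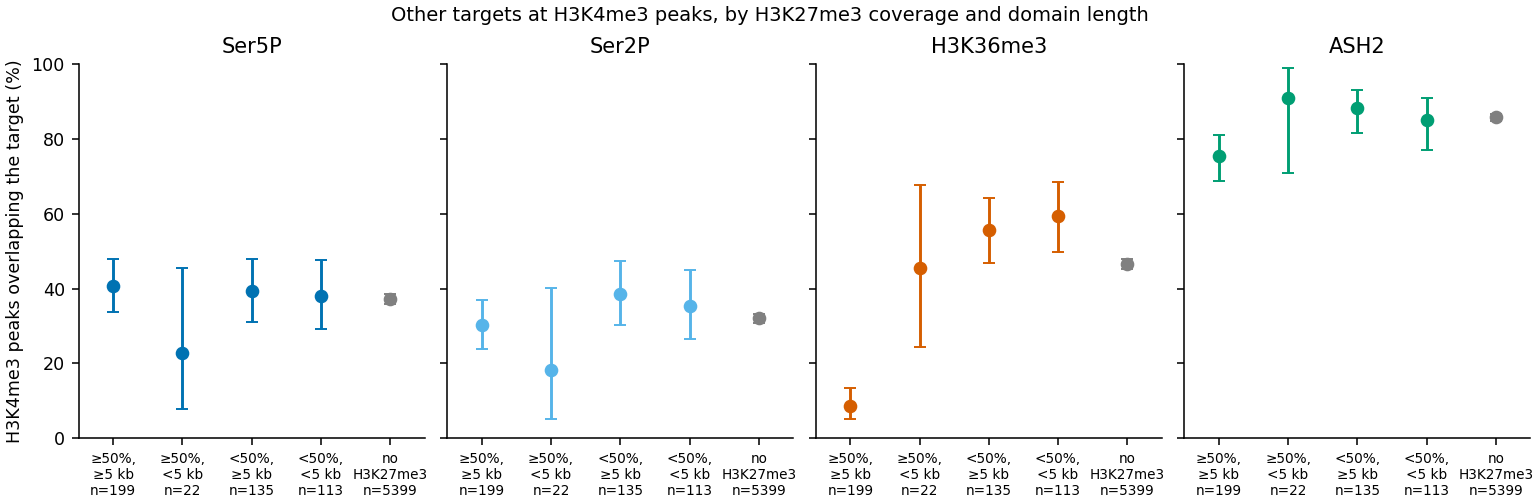
Share of H3K4me3 peaks that overlapped Ser5P, Ser2P, H3K36me3 or ASH2, by H3K27me3 coverage (50% or more, or less) and domain length (5 kb or more, or less), with peaks lacking H3K27me3 in grey; bars are 95% exact intervals and n is the number of peaks. H3K36me3 is at 8.54% in the first group and between 45.5 and 59.3% in the others, and Ser5P is between 38.1 and 40.7% in the 3 groups of more than 100 overlapping peaks.

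Taken over all 469 peaks, H3K36me3 was present at 36%, against 46.7% of the other H3K4me3 peaks, a difference of -10.6 percentage points (95% Newcombe interval -15.1 to -6.01). This joins opposite values: well-covered peaks in long domains were 38.1 points below the other H3K4me3 peaks (-41.5 to -33.2; lower on 5 of 5 chromosome arms), whereas partly covered peaks were 10.6 points above them (4.22 to 16.7; higher on 2 arms and lower on 3). Between coverage groups the difference was -45 points (12.2% at 50% or more against 57.3% below; -52.1 to -37.1), with the same sign on 5 of 5 arms. Between domain lengths it was -29.5 points (27.5% in long against 57.0% in short domains; -38.7 to -19.7). Among partly covered peaks, long and short domains differed by -3.74 points (-15.8 to 8.54), and among well-covered peaks by -36.9 points (-57.0 to -17.8; 22 peaks in short domains). Within long domains the coverage groups differed by -47.0 points (-55.7 to -37.4). By coverage, H3K36me3 was found at 50 to 65.9% of peaks in each of the 5 classes below 50%. It was at 34.5, 40.7, 23.1 and 18.8% in the classes from 50 to 90%, and at 0 of 136 peaks covered by at least 90%, which allows a share of up to 2.21% by a limit of 3 counts and 2.68% by the exact interval.

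**Figure D2:**
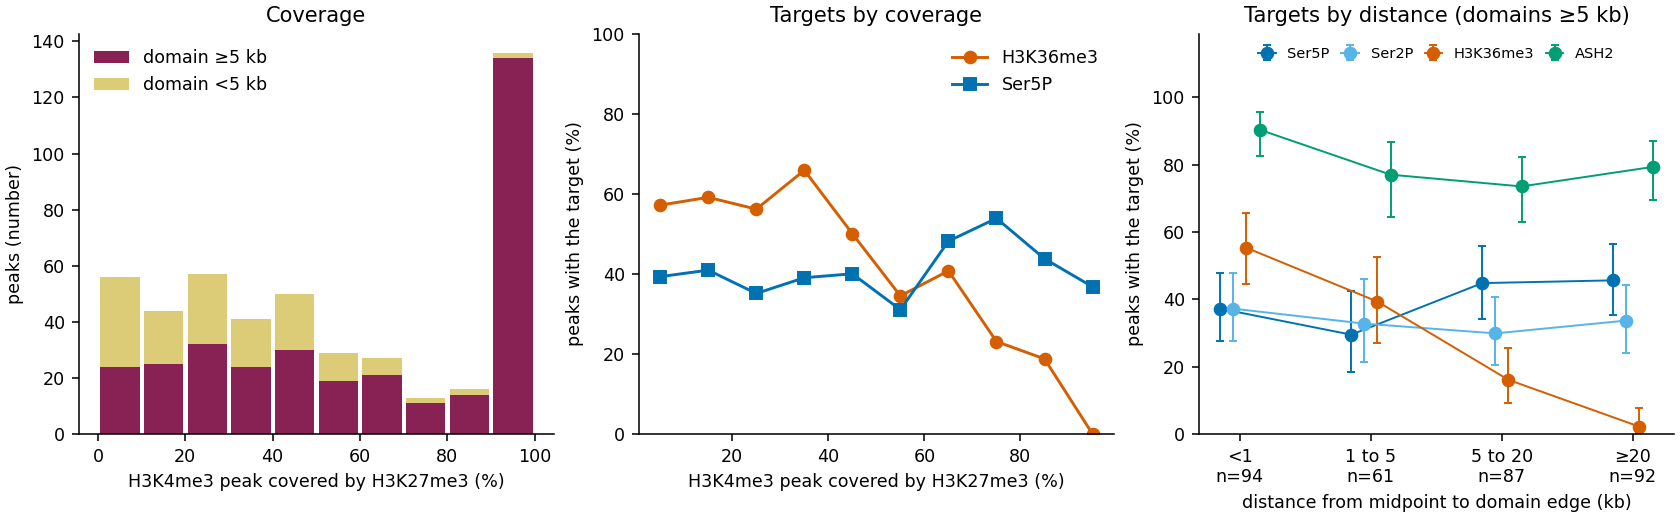
Left, the number of overlapping H3K4me3 peaks by the percentage of the peak under H3K27me3, stacked by domain length; middle, the share with H3K36me3 or Ser5P in the same classes; right, the share with each target by distance from the peak's midpoint to the domain edge, in domains of 5 kb or more, with 95% exact intervals. H3K36me3 goes from 57.1% in the lowest coverage class to 0 in the highest, and from 55.3% within 1 kb of the edge to 2.17% at 20 kb or more, while Ser5P is between 29.5 and 45.7% at every distance. All arms are joined: of the overlapping peaks with H3K36me3, 163 lie on 3R or X and 6 on the other arms.

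Over all arms together, the difference between overlapping and other H3K4me3 peaks had an interval that included 0 for both polymerase forms, with unlike values on single arms. Ser5P was present at 182 of 469 (38.8%, 34.4 to 43.4), against 37.1% of the other H3K4me3 peaks and 37.3% of all, a difference of 1.67 points (-2.82 to 6.33). It was at 40.7% of well-covered peaks in long domains, 22.7% of the 22 in short domains, 39.3% of partly covered peaks in long domains and 38.1% in short ones. By arm, well-covered peaks in long domains had Ser5P at 48.7 to 50% on 2L, 2R and 3L and at 27.6 to 28% on 3R and X. The other H3K4me3 peaks had it at 34.4 to 40.9% on the single arms. Ser2P was present at 156 of 469 (33.3%, 29.0 to 37.7), against 32.0% of the others and 32.1% of all, a difference of 1.22 points (-3.08 to 5.77). By group Ser2P was at 30.2% of well-covered peaks in long domains, 18.2% of those in short domains, 38.5% of partly covered peaks in long domains and 35.4% in short ones. The coverage groups differed by 0.204 points in Ser5P (-8.55 to 9.0) and by -8.14 points in Ser2P (-16.4 to 0.407), and both intervals include 0. For Ser2P this depended on the setting, in both directions. The difference was -15.1 points with the split at 25% (-25.0 to -5.26) and -12.3 at 75% (-20.5 to -3.32). With the wider 50% of the H3K27me3 list it was -13.6 (-26.9 to -0.463). With overlaps of at least 100 bp it was -3.80 (-13.1 to 5.55), and with H3K4me3 peaks of at least 100 bp -5.57 (-14.2 to 3.26). Without 3R and X it was 0.985 (-18.5 to 16.4), and with partly covered peaks weighted to the widths of the well-covered ones -3.68. Where Ser5P was present, the median width of its peaks was 1079 bp at overlapping H3K4me3 peaks and 836.5 bp at the others.

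Well-covered peaks in long domains lacked H3K36me3 more often than other H3K4me3 peaks, both with polymerase and without it. Either polymerase form was at 98 of 199 (49.2%, 42.1 to 56.4), against 51.3% of the others. Neither polymerase nor H3K36me3 was found at 91 of 199 (45.7%, 38.7 to 52.9), against 27.2%. Ser5P without H3K36me3 was found at 75 of 199 (37.7%, 30.9 to 44.8), against 23.0% of the H3K4me3 peaks lacking H3K27me3 (21.9 to 24.1). Of the 199, 33 held Ser5P, Ser2P and ASH2 without H3K36me3 (16.6%, against 6.76% of the others). Among the 60 that held Ser2P, 6 had H3K36me3 (10%, 3.76 to 20.5), whereas 1183 of 1730 Ser2P-bearing peaks without H3K27me3 had it (68.4%, 66.1 to 70.6). Partly covered peaks with Ser2P had H3K36me3 at 67 of 92 (72.8%, 62.6 to 81.6). Ser2P accompanied Ser5P at 53.1% of the well-covered peaks with Ser5P, against 48% of the other H3K4me3 peaks with Ser5P. At the other end, 33 of the 199 overlapped none of these 4 targets (16.6%, against 3.82% of the others), and 58 had ASH2 alone (29.1%, against 23.4%). Peaks under 100 bp wide have little length to overlap a target. They made up 18 of the 199 and 94 of the 5399 others, and the part of width in these shares was not tested. Where H3K36me3 was missing from a well-covered peak it was also far off, with the nearest H3K36me3 peak a median of 35915 bp away, against 1052 bp for other H3K4me3 peaks without it.

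ASH2, the subunit of the H3K4 methyltransferase complexes, was less frequent at well-covered peaks in long domains. It was present at 150 of 199 (75.4%, 68.8 to 81.2), against 85.7% of the other H3K4me3 peaks and 85.4% of all, a difference of -10.4 points (-16.9 to -4.81; lower on 5 of 5 arms). Partly covered peaks had ASH2 at 215 of 248 (86.7%, 81.8 to 90.7). The lower share came with narrow peaks: among H3K4me3 peaks of up to 623 bp, ASH2 was at 66 of 100 well-covered peaks in long domains (66.0%, 55.9 to 75.2) and at 87.5% of the others (85.6 to 89.2). Among peaks over 1074 bp it was at 37 of 42 (88.1%, 74.4 to 96.0) and 86.7% (84.7 to 88.5). Of the 49 well-covered peaks in long domains without ASH2, 31 had an ASH2 peak within 500 bp (63.3%). The share was 54.4% for other H3K4me3 peaks without ASH2 and 45.5% for partly covered ones. Between coverage groups, over all domain lengths, ASH2 differed by -9.77 points (-16.8 to -2.80). With H3K4me3 peaks of at least 100 bp it was -6.40 (-13.4 to 0.446), and with H3K27me3 overlaps of at least 100 bp -6.90 (-14.2 to 0.532). A coverage split at 75% gave -13.8 (-21.9 to -6.23), and ASH2 overlaps of at least 100 bp -14.1 (-21.9 to -6.15). With ASH2 counted within 500 bp the coverage groups differed by -1.34 points (-6.49 to 3.61). For the -10.4 points against the other H3K4me3 peaks, this count adds 31 peaks to the 150 of 199. It adds 419 to the 4629 of 5399 others, which leaves a smaller difference than -10.4 points. ASH2 was nearly always there with Ser5P, at 74 of 81 well-covered peaks (91.4%, 83.0 to 96.5) and 94.3% of the other H3K4me3 peaks, and without Ser5P at 76 of 118 (64.4%, 55.1 to 73.0) and 80.7%.

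Peak width also bore on polymerase. Among well-covered peaks in long domains, Ser5P was at 25 of 100 peaks of up to 623 bp (25%, 16.9 to 34.7), against 33.9% of other H3K4me3 peaks of that width. At 623 to 844 bp it was at 17 of 34 (50%, 32.4 to 67.6), against 31.8%. Over 1074 bp it was at 29 of 42 (69.0%, 52.9 to 82.4), against 48.2% (45.5 to 50.9). H3K36me3 was lower at every width: 2.00, 11.8, 26.1 and 11.9% of the well-covered peaks from the narrowest to the widest class, against 10.8, 41.4, 63.2 and 71.1% of the others.

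Inside a domain, H3K36me3 was less frequent with distance from the edge. Of the 334 peaks in domains of at least 5 kb, those with a midpoint less than 1 kb from the edge or outside it had H3K36me3 at 52 of 94 (55.3%, 44.7 to 65.6). The share was 39.3% at 1 to 5 kb (24 of 61), 16.1% at 5 to 20 kb (14 of 87) and 2.17% at 20 kb or more (2 of 92; 0.264 to 7.63). Ser5P was at 37.2, 29.5, 44.8 and 45.7% over the same distances, and Ser2P at 37.2, 32.8, 29.9 and 33.7%, with overlapping intervals. ASH2 was at 90.4% within 1 kb and at 73.6 to 79.3% farther in. Of the 80 well-covered peaks at least 20 kb inside, 36 held Ser5P (45%, 33.9 to 56.5), 27 held Ser2P (33.8%, 23.6 to 45.2) and none H3K36me3, which allows a share of up to 3.75% by a limit of 3 counts and 4.51% by the exact interval.

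Seen from the domains, long ones held an overlapping H3K4me3 peak more often, at a similar number per length. Of the 3800 domains, 347 held at least 1 and 84 held several. An overlapping peak was found in 4.95% of 2585 domains under 5 kb, 9.08% of 826 from 5 to 20 kb, 25.6% of 262 from 20 to 50 kb and 60.6% of 127 domains of 50 kb or more (51.6 to 69.2). Per Mb of domain there were 12.3, 11.3 and 11.6 in the 3 longer classes, and 46.3 in domains under 5 kb, where an H3K4me3 peak is often as long as the domain. H3K36me3 was present at 57.0% of the overlapping peaks in domains under 5 kb, 51.0% from 5 to 20 kb, 29.8% from 20 to 50 kb and 8.70% in domains of 50 kb or more. Ser5P was at 35.6, 36.3, 43.6 and 40.6% in the same order. A further 203 H3K4me3 peaks lay in gaps between the H3K27me3 peaks of a domain. The overlapping peaks had Ser2P at 33.3%, against 20.2% of those in gaps (difference 13.1 points, 5.75 to 19.7), and H3K36me3 at 36%, against 32.5% (3.52 points, -4.41 to 11). Their median width was 850 bp, against 684 bp in gaps. Among all H3K4me3 peaks without H3K27me3, Ser2P was at 12.8% in the narrowest width class and 52.5% in the widest. The part of width in the Ser2P difference was not tested.

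Single regions show both kinds. The longest stretch of H3K4me3 under H3K27me3 lay on 3L from 15228907 to 15233309. This peak of 4403 bp was covered over 93.8%, lay 28364.5 bp inside a domain of 100970 bp, and held Ser5P over 97.6% of its length, Ser2P over 43.9% and ASH2 over 73.2%, with no H3K36me3. In rank after it came 3 peaks of arm 2R (15999062 to 16003691, 7412731 to 7415810, 14120319 to 14123490) and 1 of arm 3L (6783451 to 6786289), which H3K27me3 covered over 76.3 to 99.6%. All 4 held Ser5P (80.9 to 100% of their length) and Ser2P (55.8 to 89.7%), none held H3K36me3, and the first of them lacked ASH2. The peak farthest from an edge, on 2L from 14490902 to 14493377, lay 113 kb inside a domain of 236 kb, with Ser5P over 84.9% and Ser2P over 76.0% of its length. The next, on 3L from 12621088 to 12621591, lay 90.4 kb inside and held Ser5P, Ser2P and ASH2. Of the 5 deepest peaks, 3 held no polymerase: those on 3R from 6435814 to 6436263, from 6438511 to 6439136 and from 6439308 to 6439874 lay 82.1 to 85.6 kb inside a domain of 268 kb and held ASH2 only. H3K27me3 covered 62.9, 43.1 and 5.82% of them.

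Of the 5 widest peaks wholly under H3K27me3, 2 held Ser5P. That on 2L from 3604807 to 3607531 (2725 bp) held Ser5P over 94.0% and ASH2 over 16.6% without Ser2P, and that on 3L from 21697697 to 21699432 (1736 bp) lay wholly under Ser5P and Ser2P without ASH2. The peaks on 3L from 20685893 to 20688307 and on 2L from 3578821 to 3580542 held ASH2 alone, and that on 3L from 5836261 to 5837920 held none of the 4 other targets. The domain with the most overlapping peaks, on 3L from 12530964 to 12724137, held 7, of 425 to 1699 bp. All 7 were covered over at least 92.3% and held ASH2, 5 held Ser5P, 5 held Ser2P and none held H3K36me3. The next, on 3R from 22986146 to 23063008, held 5, all with ASH2, 1 with Ser5P and 2 with Ser2P. A tie of 6 domains with 4 overlapping peaks followed, the first by arm and start being that on 2L from 3530997 to 3618668. Its 4 peaks, of 180 to 2725 bp, were wholly covered and all held ASH2, 1 held Ser5P, and none held Ser2P or H3K36me3.

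The widest peaks that held all 4 other targets were of the partly covered kind. On 3R from 11156435 to 11159916, a peak of 3482 bp met an isolated H3K27me3 peak of 21 bp and lay under Ser5P over 99.4%, Ser2P over 96.9%, H3K36me3 over 89.2% and ASH2 over 71.6%. The next, on X from 7828975 to 7831744 and from 18756263 to 18758964, met H3K27me3 peaks of 76 and 145 bp. On 3R from 13990345 to 13992981 and on X from 6184099 to 6186641, the peaks had their midpoints 1013.5 and 1634.5 bp inside long domains, the first of them crossing the domain edge, and were covered over 7.58 and 24.0%. All 5 lay on 3R or X. At the limit of the rule, the shortest overlaps were 1 and 2 bp, both on 3R, followed by 3 overlaps of 3 bp, 1 on 3R and 2 on X. The overlap of 2 bp was a whole H3K4me3 entry of 2 bp, 16.3 kb inside a domain of 83.4 kb. The nearest H3K4me3 peaks left out were 6, 10 and 16 bp from an H3K27me3 peak, all on X. Overlaps of at most 10 bp made up 16 of the 469, and included wholly covered entries of 7, 8 and 10 bp.

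**Figure D3:**
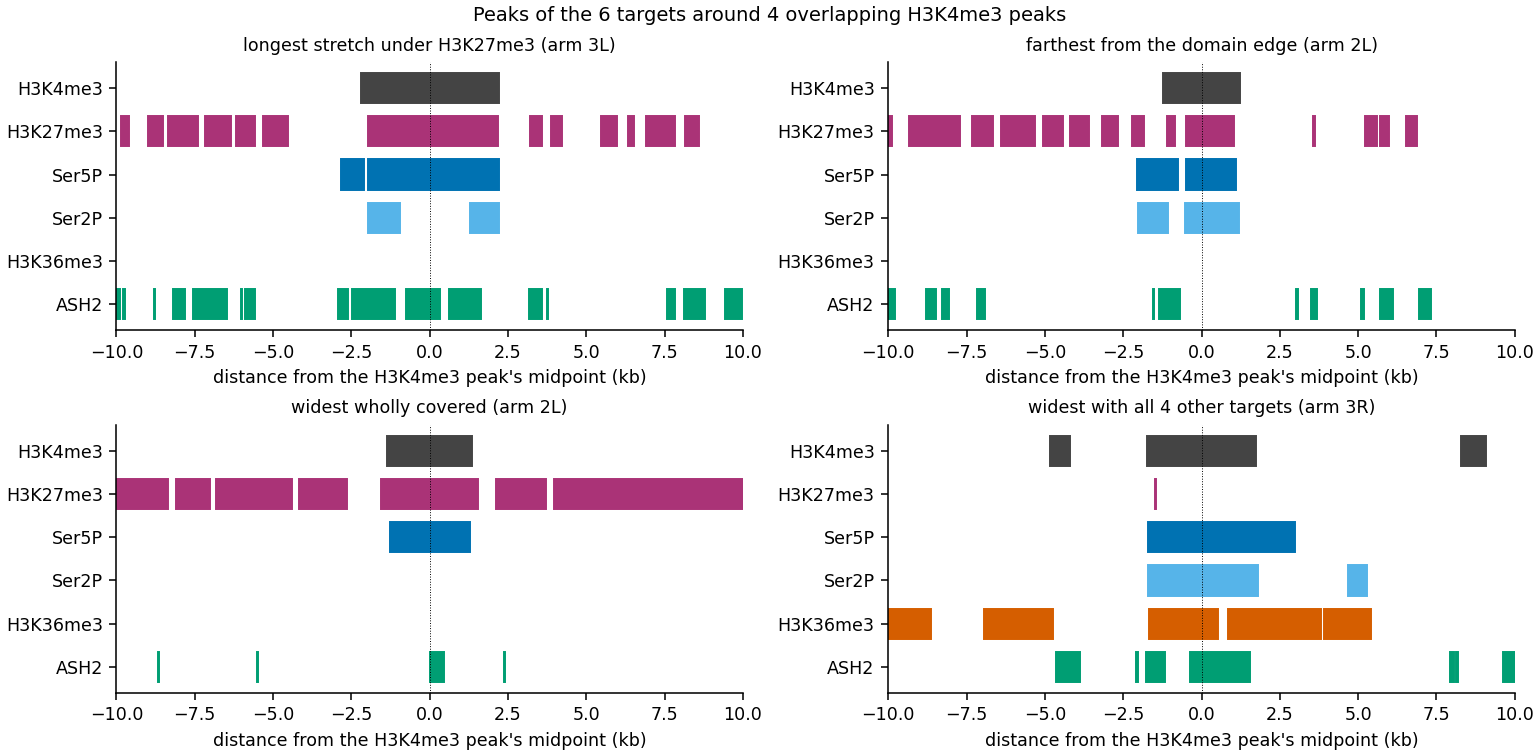
Peaks of the 6 targets within 10 kb on either side of the midpoint of an H3K4me3 peak, for the first region of each naming rule; each block is 1 peak as deposited. In the upper panels and at lower left, H3K27me3, Ser5P and ASH2 blocks meet the central H3K4me3 block and the H3K36me3 row is empty; at lower right, the central H3K4me3 block lies under H3K36me3, Ser5P and Ser2P and meets an H3K27me3 peak of 21 bp.

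The overlapping peaks were unevenly spread over the arms. H3K27me3 was met by 12% of H3K4me3 peaks on 3R (171 of 1420) and 14% on X (143 of 1021), against 4.14% on 2L, 4.81% on 2R and 4.56% on 3L. The H3K27me3 list was also denser on 3R and X, at 231 and 243 entries per Mb, than on 2L, 2R and 3L, at 150 to 165. On 3R and X, 219 of the 314 overlapping peaks were partly covered (69.7%), against 29 of 155 on 2L, 2R and 3L (18.7%). Their midpoints lay a median of 249.8 bp from the domain edge on 3R and X, and 12721 bp on 2L, 2R and 3L. The well-covered peaks in long domains were more even, with 50 on 3R, 29 on X, 36 on 2L, 39 on 2R and 45 on 3L.

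**Figure D4:**
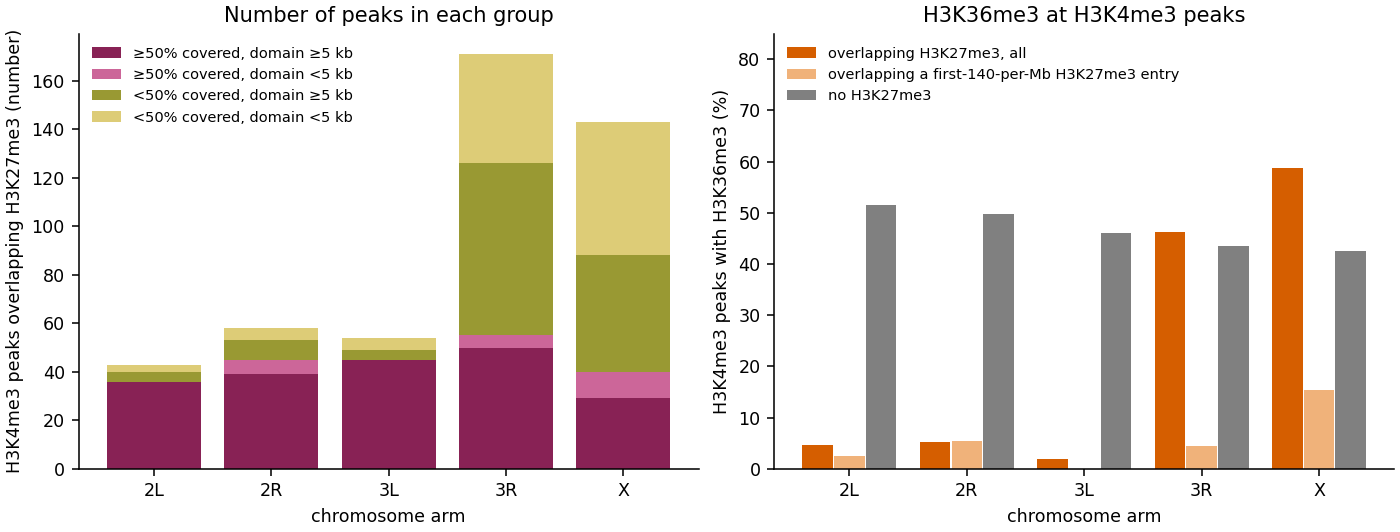
Left, the number of H3K4me3 peaks overlapping H3K27me3 on each chromosome arm, stacked by coverage and domain length; right, the percentage of H3K4me3 peaks with H3K36me3 among overlapping peaks, among those that overlap 1 of the first 140 H3K27me3 entries per Mb of the arm, and among peaks without H3K27me3. On 3R and X most overlapping peaks are partly covered and 46.2 and 58.7% have H3K36me3; on 2L, 2R and 3L 1.85 to 5.17% have it.

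The arms also split the other targets. H3K36me3 was at 6 of 155 overlapping peaks on 2L, 2R and 3L (3.87%, 1.43 to 8.23), against 49.0% of the other H3K4me3 peaks there. On 3R and X it was at 163 of 314 (51.9%, 46.2 to 57.6), against 43.1%. Ser5P was at 47.1% of the overlapping peaks on 2L, 2R and 3L, against 37.6% of the others, and at 34.7% on 3R and X, against 36.3%. The Ser5P difference on 2L, 2R and 3L was 9.44 points (1.57 to 17.4). Ser2P was at 28.4% of the overlapping peaks against 35.2% of the others on 2L, 2R and 3L, and at 35.7% against 27.2% on 3R and X. The Ser2P difference was 7.41 points on 3R (0.150 to 15.2) and 10.04 points on X (2.07 to 18.6). Among well-covered peaks in long domains alone, H3K36me3 was at 2.78% on 2L, at 0 on 2R and 3L, at 16.0% on 3R and at 27.6% on X.

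The place of a peak in its list went along with these groups. Entries are not sorted by coordinate within an arm, and the sources used here do not say what sorted them. Entries late in the H3K27me3 list were narrow, with a median width of 1356 bp in the first 10% and 151 bp in the last 10% on 3R. H3K36me3 overlapped 0.155% of the first 10% of entries on 3R and 11.3% of the last 10%. The same shares were 0 and 13.7% on X, 0 and 1.15% on 2L, 0 and 0.313% on 2R, and 0.493 and 0% on 3L. Of the overlapping H3K4me3 peaks, 218 met at least 1 of the first 140 H3K27me3 entries per Mb of their arm and 251 met later entries only. Those first entries were 3217 of 3484 on 2L, 2960 of 3182 on 2R and 3434 of 4054 on 3L. They were 3905 of 6441 on 3R and 3139 of 5459 on X. Overlapping peaks met such an entry in 92.6 to 96.6% of cases on 2L, 2R and 3L. On 3R it was 26.3% and on X 18.2%, so the later-only peaks lay mostly on these arms. H3K36me3 was at 10 of the 218 (4.59%, 2.22 to 8.27) and at 159 of the 251 (63.3%, 57.1 to 69.3). On 3R and X taken singly, the later-only peaks had it at 61.1 to 68.4%. Counted with the early entries alone, the overlapping peaks made up 3.17% of H3K4me3 peaks on 3R and 2.55% on X, against 3.95% on 2L, 4.64% on 2R and 4.23% on 3L, and H3K36me3 was at 0 to 5.36% of them on each arm except X (15.4%, 4 of 26).

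The H3K4me3 list had an order of its own. Its median width was 1179 bp in the first 10% of each arm's entries and 371 bp in the last 10%, which held 81 of the 199 well-covered peaks in long domains. These 81 had Ser5P at 23.5% (14.8 to 34.2), Ser2P at 8.64% and ASH2 at 59.3% (47.8 to 70), against 31.0, 13.8 and 83.0% of the other H3K4me3 peaks in the same 10%. The 41 in the first 50% of the list had Ser5P at 68.3% (51.9 to 81.9), Ser2P at 61.0% (44.5 to 75.8) and H3K36me3 at 34.1% (20.1 to 50.6), against 41.8, 45 and 62.9% of the other H3K4me3 peaks there. Overlaps between entries early in both lists were few: 42 of 469 joined an H3K4me3 peak in the first 50% of its list to an H3K27me3 entry among the first 140 per Mb (8.96%, 6.53 to 11.9). These 42 were found on all 5 arms (6 to 12 each) and had a median width of 1227 bp. Ser5P was at 34 of them (81.0%, 65.9 to 91.4), Ser2P at 23 (54.8%), H3K36me3 at 8 (19.0%, 8.60 to 34.1) and ASH2 at 41 (97.6%, 87.4 to 99.9). The part of list order in the other differences was not tested beyond these values.

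**Figure D5:**
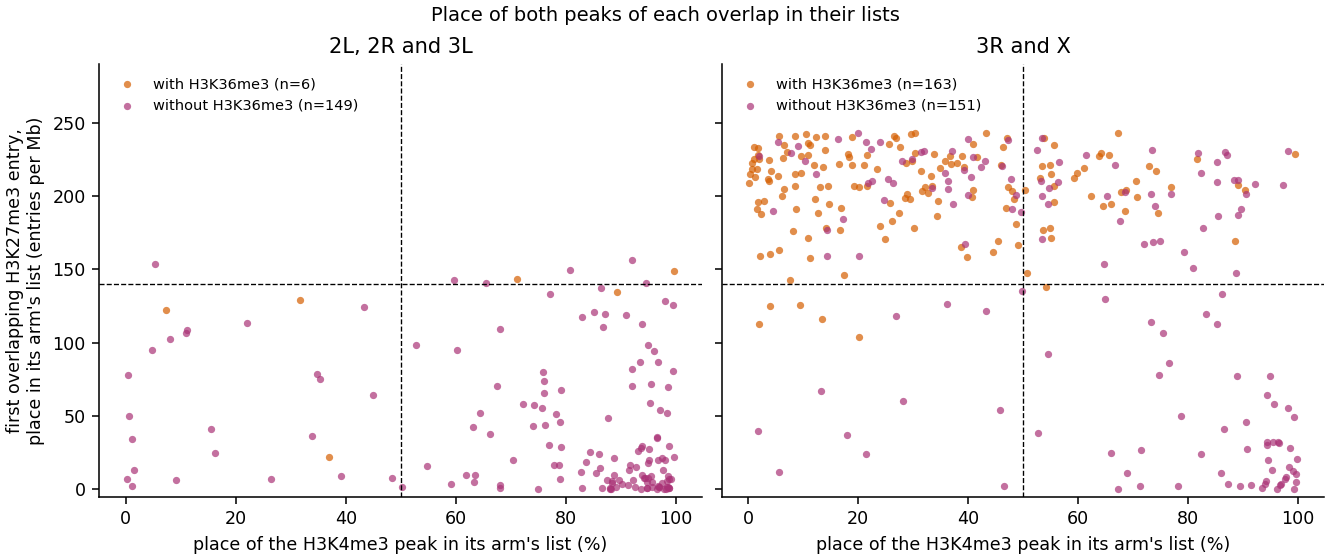
Each point is 1 H3K4me3 peak overlapping H3K27me3, placed by its position in the arm's H3K4me3 list (percent of entries) and by that of the first H3K27me3 entry it meets (entries per Mb of the arm), coloured by H3K36me3; dashed lines mark 50% and 140 entries per Mb. On 2L, 2R and 3L the points gather at the lower right and 6 of 155 have H3K36me3; on 3R and X most lie above the horizontal line and 163 of 314 have it. The H3K27me3 list ends at 152, 150.5 and 165 entries per Mb on 2L, 2R and 3L, and at 231 and 243.5 on 3R and X. Few points on 2L, 2R and 3L could therefore lie above the line.

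Within the overlapping peaks, the stretch under H3K27me3 was compared with the rest of the same peaks. H3K36me3 covered 25.4% of the stretches and 46.8% of the rest, but among partly covered peaks it covered 60.5% of the stretches and 50.5% of the rest. Where a partly covered peak held H3K36me3, it lay towards the same side of the peak's midpoint as the H3K27me3 stretch in 72 of 141 cases (51.1%, 42.5 to 59.6). In well-covered peaks H3K36me3 lay towards the same side in 22 of 27 cases (81.5%, 61.9 to 93.7). There Ser2P did so in 31 of 45, Ser5P in 32 of 49 and ASH2 in 36 of 77. A stretch or target centred on the midpoint has no side, so wholly covered peaks did not enter. The cases counted were 45 of the 64 well-covered peaks with Ser2P, 49 of 86 with Ser5P and 77 of 170 with ASH2. Ser5P covered 44.5% of the stretches and 36.1% of the rest, and ASH2 45.6 and 48.1%.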

How the data were processed

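Each of the 6 targets has 1 list of peak positions, deposited by the authors as 3 columns (chromosome, start, end) without heights or p-values. The build is dm3, per the submitters' processing notes. Starts were raised by 1 bp for printing. Aligner, peak caller and threshold, and whether the input served as control, were not given in the sources used here. A caller's threshold decides how many weak entries a list holds and how a broad region is broken up, so overlaps depend on it. Entries with equal start and end (108 for H3K27me3, 306 for ASH2, 2 for H3K4me3, 1 for H3K36me3) counted as 1 bp in overlaps.

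Overlaps, coverage and domains were computed in Python 3.11.15 with numpy 2.4.6, pandas 2.3.3 and scipy 1.17.1; the code was tested on simulated intervals. Shares have exact (Clopper-Pearson) 95% intervals and differences Newcombe 95% intervals, which cover counting only; for a count of 0 the limit from 3 counts is also given. An arm entered a count of arms when both groups had at least 5 peaks there. No test was made, since each target has 1 library.

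Named regions are the 5 longest stretches under H3K27me3, the 5 peaks farthest from an edge, the 5 widest wholly covered, the 5 widest with all 4 other targets, the 3 domains with the most such peaks and the 3 peaks nearest either side of the 1 bp limit, with ties broken by arm and start. The values by list order were added after the lists were seen. The set of peaks, its splits and these rules were chosen with earlier results of these data known. The only gene annotation at hand is of a newer assembly than dm3 and was not used, so no genes are named.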

Additional observations from a re-analysis of the deposited data

Results flagged for a closer look

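The difference between overlapping and other H3K4me3 peaks had one sign on arms 2L, 2R and 3L and the opposite sign on 3R and X for 3 targets, and this split was not tested. For H3K36me3 it was -46.9 points (2L), -44.6 points (2R) and -44.1 points (3L), whereas 3R gave 2.64 and X 16.3 points. For Ser2P it was -8.07 points (2L), -3.91 points (2R) and -8.96 points (3L), whereas 3R gave 7.41 and X 10.04 points. For Ser5P it was 13.6 points (2L), 3.89 points (2R) and 11.9 points (3L), whereas 3R gave -2.66 and X -0.734 points. The arms are parts of the same libraries, and the 95% Newcombe interval includes 0 on every arm for Ser5P, on 2L, 2R and 3L for Ser2P and on 3R for H3K36me3. Over 2L, 2R and 3L together, the Ser5P difference was 9.44 points (1.57 to 17.4).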

How the results depend on the processing

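No paired analysis was possible because each target has 1 library. Of 128 recomputed differences, 100 stayed inside the interval of the reported value and 28 did not, and of 34 recomputed counts, 23 stayed within 1.5 times. The H3K36me3 differences kept their negative sign under every alternative run for them: between coverage groups they ran from -59.1 to -12.2 points, between domain lengths from -54.8 to -12.9 and against the other peaks from -45.1 to -9.49. No alternative kept 3R and X alone. There the difference from the other peaks was positive, at 2.64 points on 3R (-5.17 to 10.6) and 16.3 on X (7.43 to 24.6). Where a setting moved a value, the cause was not tested.

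Without 3R and X there were 155 overlapping peaks, 126 of them well covered, 136 in long domains and 120 both. Against the other peaks the differences were then 9.44 points for Ser5P, -6.82 for Ser2P, -45.1 for H3K36me3 and -9.63 for ASH2. Between coverage groups they were -12.2 points for H3K36me3 and 0.985 for Ser2P, and between domain lengths 35.7 for Ser5P, 14.4 for Ser2P and -19.6 for H3K36me3, with 19 peaks in short domains. With the first 140 H3K27me3 entries per Mb, chosen after seeing the data, there were 218 overlapping peaks, 193 in long domains. Differences from the other peaks were -42.8 points for H3K36me3, -7.18 for Ser2P (-12.6 to -0.900) and -8.23 for ASH2. Coverage groups differed by -14.6 points for H3K36me3 and -10.02 for Ser5P, and domain lengths by -12.9 for H3K36me3 and 14.9 for Ser2P. With the wider 50% of the H3K27me3 list there were 266 overlapping peaks, 195 in long domains. H3K36me3 then differed by -19.2 points from the other peaks, -59.1 between coverage groups and -54.8 between domain lengths, and Ser5P by -8.55 between coverage groups.

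Counting targets within 500 bp gave -19.4 points for H3K36me3 against the other peaks and -53.2 between coverage groups, and for ASH2 -1.34 between coverage groups and 3.48 between domain lengths. A coverage split at 25% gave 345 well-covered peaks and -31.0 points for H3K36me3. A domain gap of 1000 bp left 135 peaks in long domains, 127 of them well covered, with -43.3 points for H3K36me3 and -14.5 for Ser2P (-22.7 to -5.20) between domain lengths. With partly covered peaks weighted to the widths of the well-covered ones, also chosen afterwards, the H3K36me3 difference was -28.8 points. The unknown depth limits what the absence of a peak shows, above all at narrow H3K4me3 peaks.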
